A study of Mus musculus with 2 samples.

Results

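The 10 Wnt ligand genes described here are Wnt3, Wnt3a, Wnt4, Wnt5a, Wnt5b, Wnt7a, Wnt7b, Wnt9a, Wnt10a and Wnt11. They were read through every probe set whose platform annotation names exactly 1 of them, which gave 19 probe sets of the 34945 that name a single gene, for 10 of 18193 genes. The RNA came from cultured lung epithelium of ICR mouse fetuses at embryonic day 11, measured on Affymetrix arrays. Both cultures had first spent 4 days in matrigel, a gel of basement membrane matrix, with CHIR99021 and FGF10, the growth factor of lung budding. The fragmented epithelium was then re-embedded for 2 days in FGF10 medium, either with CHIR (CHIR+) or without it (CHIR-). The comparison is therefore between continued inhibitor and its withdrawal, and each condition was measured on 1 array, so no error between cultures and no p-value can be given.

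Wnt ligands are secreted, lipid-modified glycoproteins that bind Frizzled receptors. In the canonical branch they also engage Lrp5 or Lrp6 and keep beta-catenin from being degraded. In the non-canonical branches they act through receptors such as Ror2 and Ryk on cell polarity and movement. CHIR99021 inhibits glycogen synthase kinase 3 and so stabilises beta-catenin inside the cell, downstream of every ligand and receptor. In the mouse lung the epithelium makes Wnt7b, which is needed for growth of the epithelium and the surrounding mesenchyme, while Wnt2 and Wnt2b come from the mesenchyme.

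The values are the authors' MAS5 signals, and a probe set or gene is called readable on an array when its signal exceeded a floor, the 95th percentile of 80 olfactory and vomeronasal receptor probe sets, 12.7 on the CHIR+ array and 19.2 on the CHIR- array. Log2 ratios are CHIR+ over CHIR-, and where 1 array is below its floor the value is a bound, given with the words "at least". The median log2 ratio of the 11356 genes readable on both arrays was -0.40, so a typical gene was dimmer on the CHIR+ array. The signal of the 3′ probe set of beta-actin over that of its 5′ probe set was 3.18 on the CHIR+ array and 1.29 on the CHIR- array, and the same ratio for Gapdh was 1.62 on the CHIR+ array and 0.737 on the CHIR- array. All ligand comparisons below set the array with the larger 3′ bias against the other, and the part of this bias in them was not tested. Log2 ratios scattered with an SD of 0.557 between readable probe sets of 1 gene, a measure of probes and not of cultures. Signals of different probe sets depend on their own probes, so the ligands are not ranked by level.

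With CHIR99021 present, the ligand genes split: Wnt7b was higher, Wnt4, Wnt5a, Wnt7a and Wnt9a were more than 3-fold lower, and Wnt5b and Wnt11 were within 2-fold. Wnt10a and Wnt3a were also lower, by bounds close to the 2-fold threshold. Of 10 genes, 6 were readable on both arrays, and of these 1 was at least 2-fold higher (1.75% of all genes readable on both arrays were), 3 were lower (17.3%) and 2 were within 2-fold. Another 3, Wnt3a, Wnt9a and Wnt10a, were above the floor on the CHIR- array only, so that they could count only as lower. Wnt3 was below the floor on both arrays. Over the 9 genes readable on at least 1 array, called measured below, this made 1 higher, against 1.9% of all 12917 such genes, and 6 lower, against 18.4%. The median log2 ratio of the 6 genes readable on both arrays was -1.20, against -0.40 for all genes there. After median centring 1 ligand gene was higher and 4 were lower (5.91% and 7.44% of all measured genes). The 4 were Wnt4, Wnt5a, Wnt7a and Wnt9a, while Wnt3a and Wnt10a fell inside the threshold.

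**Figure D1:**
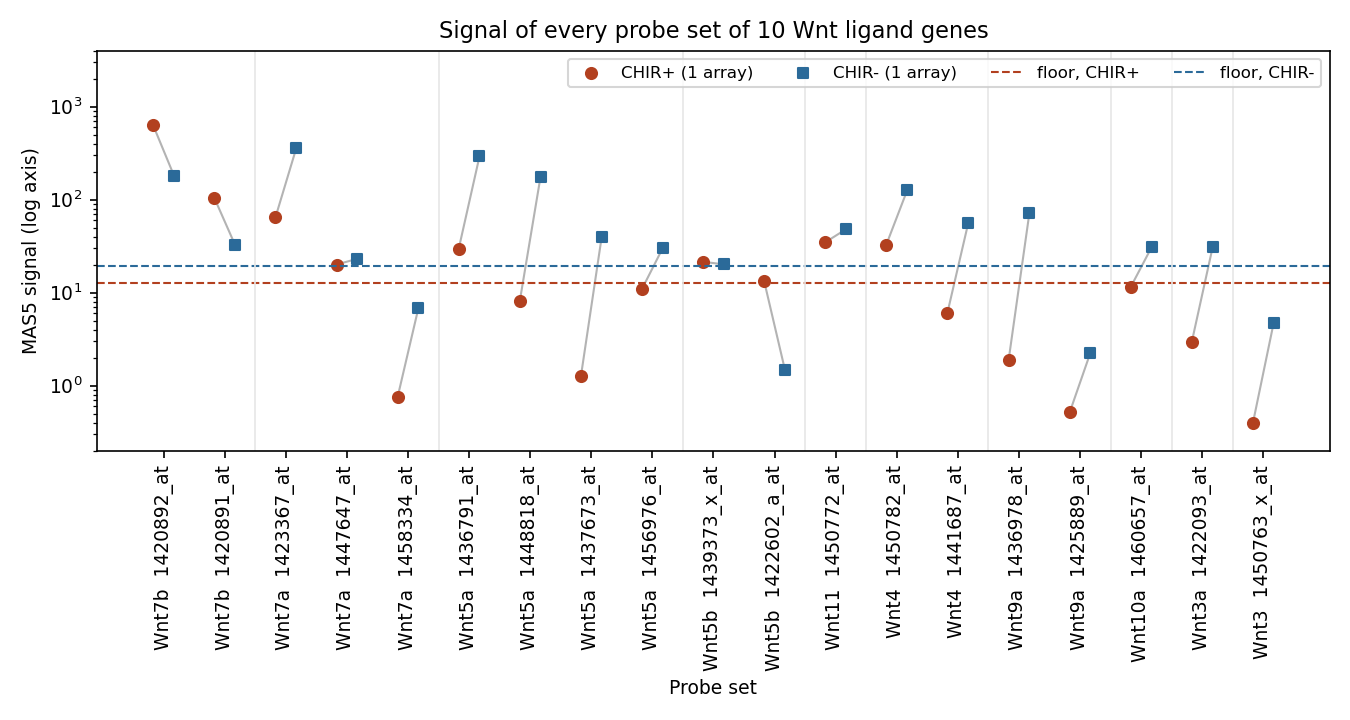
MAS5 signal (log axis) of all 19 probe sets of the 10 Wnt ligand genes, with the CHIR+ array as circles and the CHIR- array as squares, joined per probe set, and dashed lines at the floors of 12.7 and 19.2. Both Wnt7b probe sets are higher on the CHIR+ array, and all 4 Wnt5a probe sets are lower on it.

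Wnt7b, the ligand of the lung epithelium that signals to itself and to the mesenchyme, was the ligand gene with the higher signal in CHIR+. Its brighter probe set had a signal of 629 in CHIR+ and 181 in CHIR-, 3.47-fold higher. The dimmer one had 104 in CHIR+ and 32.5 in CHIR-, 3.21-fold higher. The 2 probe sets were designed from the same transcript record and gave log2 ratios of 1.80 and 1.68, which differ by less than the SD of 0.557. Of 11356 genes readable on both arrays, 48 had a higher ratio than Wnt7b.

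Wnt7a, the closest relative of Wnt7b and known in the mouse for patterning the limb and the female reproductive tract, had the opposite direction. Its brightest probe set had a signal of 64.3 in CHIR+ and 356 in CHIR-, 5.53-fold lower. A second probe set, near the floor, had 20.0 in CHIR+ and 23.1 in CHIR-, with a log2 ratio of -0.20, and the third was below the floor on both arrays. The sign of this small difference depends on the scaling, since it was 0.27 after median centring, 0.39 after loess and 0.49 after quantile normalization, so the lower signal of Wnt7a rests on 1 probe set. The log2 ratio of Wnt7b exceeded that of Wnt7a by 4.26 between the brightest probe sets, and by 1.89 to 4.26 over the 4 pairs of readable probe sets. A common scaling factor between the arrays cannot change this difference.

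Wnt5a, a mostly non-canonical ligand that restrains lung outgrowth in the mouse, had the lowest ratio among the 6 ligand genes readable on both arrays. Its brightest probe set had a signal of 29.6 in CHIR+ and 292 in CHIR-, 9.85-fold lower, and 65 genes had a lower ratio. The next had 8.14 in CHIR+, below the floor, and 177 in CHIR-, at least 13.9-fold lower. The remaining pair were dim in CHIR- and below the floor in CHIR+: the third had 1.26 in CHIR+ and 39.6 in CHIR-, at least 3.11-fold lower, and the fourth had 10.9 in CHIR+ and 30.2 in CHIR-, at least 2.37-fold lower. All 4 probe sets were past 2-fold in the same direction, but those below the floor in CHIR+ could count only as lower. The direction therefore rests on the brightest probe set.

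Wnt5b, the paralog of Wnt5a, known in the mouse for a part in cartilage growth, was near the floor on both arrays. One probe set (of the _x_at type, whose probes may also bind other transcripts) had 21.5 in CHIR+ and 20.1 in CHIR-. The other had 13.2 in CHIR+, just above the floor, and 1.47 in CHIR-, below it. That pair allows no ratio, because the floor of the CHIR- array is itself above 13.2. Between the readable probe sets, the log2 ratio of Wnt5b exceeded that of Wnt5a by 3.39.

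Wnt11, a non-canonical ligand of branching kidney tips in the mouse, was read by 1 probe set with a signal of 34.8 in CHIR+ and 48.1 in CHIR-. Its log2 ratio of -0.47 lay near the median gene at -0.40. It was 0.01 after median centring, 0.13 after loess and 0.22 after quantile normalization, so the sign of this small difference is set by the scaling.

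Wnt4, which drives tubule formation in the mouse kidney and early development of the female reproductive tract, was lower by both of its probe sets. The brighter one had a signal of 32.9 in CHIR+ and 126 in CHIR-, 3.82-fold lower. The other had 6.10 in CHIR+, below the floor, and 56.0 in CHIR-, at least 4.40-fold lower. Readable in CHIR- only, it could count only as lower. Of the genes readable on both arrays, 371 had a lower ratio than Wnt4, against 164 for Wnt7a.

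Wnt9a, a ligand of forming joints in the mouse, had a signal of 1.87 in CHIR+, below the floor, and 71.1 in CHIR-, at least 5.58-fold lower. Its other probe set was below the floor on both arrays. Wnt10a, a ligand of teeth and skin appendages, had 11.5 in CHIR+, just below the floor, and 30.7 in CHIR-, at least 2.41-fold lower. Wnt3a, a canonical ligand of the mouse tail bud, had 2.97 in CHIR+, below the floor, and 30.8 in CHIR-, at least 2.42-fold lower. Wnt3, needed for gastrulation in the mouse, had 0.398 in CHIR+ and 4.75 in CHIR-, both below the floor, and is given no ratio. Each of Wnt10a, Wnt3a and Wnt3 has 1 probe set, so nothing on the arrays checks these values.

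**Figure D2:**
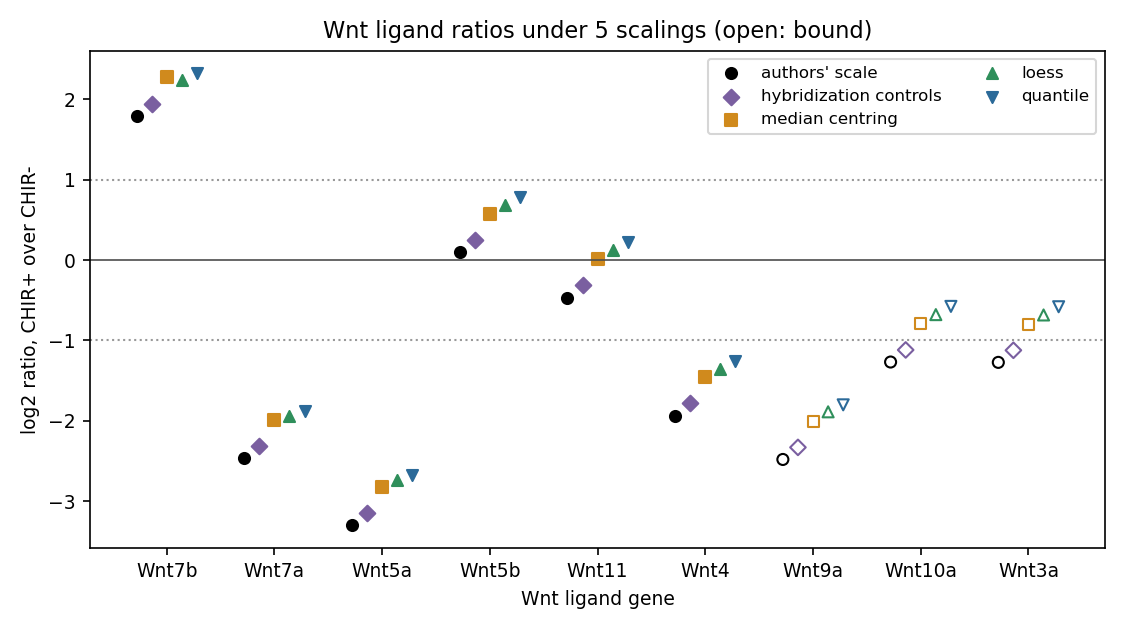
Log2 ratio, CHIR+ over CHIR-, of the 9 Wnt ligand genes readable on at least 1 array, under the authors' scale and 4 other scalings, with open symbols for bounds and dotted lines at 2-fold. Wnt7b stays above the upper line and Wnt4, Wnt5a, Wnt7a and Wnt9a below the lower line in all 5. The bounds of Wnt3a and Wnt10a cross the lower line, and Wnt11 changes sign.

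**Figure D3:**
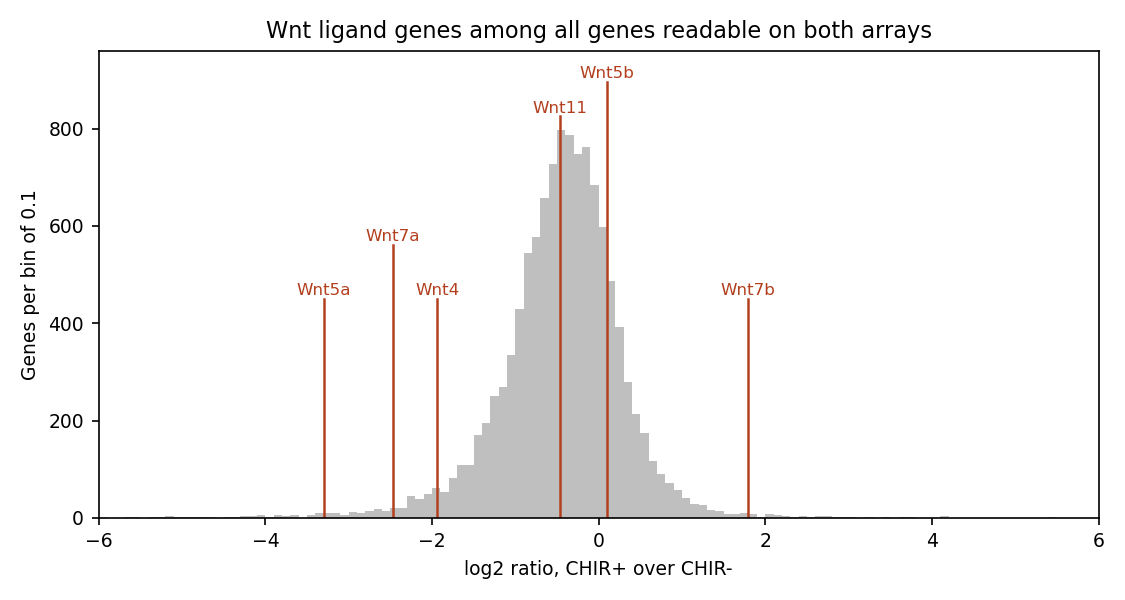
Number of genes per bin of 0.1 in log2 ratio, CHIR+ over CHIR-, for the 11356 genes readable on both arrays, with lines at the 6 Wnt ligand genes among them. Wnt7b lies in the upper tail with 48 genes above it, Wnt5a in the lower tail with 65 below it, and Wnt11 near the median of -0.40.

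The promoter sequences of RefSeq (build GRCm38.p6) held 7 of the 10 genes, in 10 windows, and only the 250 bases before each gene's start were used. The 3 windows of Wnt4, Wnt7a and Wnt9a are shown because these genes had lower signals in CHIR+, with capitals marking GGGCGG, the GC box bound by Sp-family factors, on either strand (CCGCCC when read from the other strand). The Wnt4 window lies at chr4:137277385-137277634 on the plus strand, the Wnt7a window at chr6:91411354-91411603 on the minus strand and the Wnt9a window at chr11:59306680-59306929 on the plus strand, each written 5′ to 3′ along its gene.
Wnt4: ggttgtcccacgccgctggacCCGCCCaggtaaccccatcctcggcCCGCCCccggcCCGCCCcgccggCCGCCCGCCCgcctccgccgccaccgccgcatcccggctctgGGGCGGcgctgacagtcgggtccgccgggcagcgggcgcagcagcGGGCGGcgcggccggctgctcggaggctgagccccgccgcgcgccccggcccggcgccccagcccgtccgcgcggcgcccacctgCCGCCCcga
Wnt7a: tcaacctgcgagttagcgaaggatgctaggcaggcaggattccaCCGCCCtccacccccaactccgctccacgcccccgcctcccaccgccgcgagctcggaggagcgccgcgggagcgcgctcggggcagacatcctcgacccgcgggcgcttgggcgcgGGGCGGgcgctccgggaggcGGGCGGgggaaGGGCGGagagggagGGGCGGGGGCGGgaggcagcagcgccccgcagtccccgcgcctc
Wnt9a: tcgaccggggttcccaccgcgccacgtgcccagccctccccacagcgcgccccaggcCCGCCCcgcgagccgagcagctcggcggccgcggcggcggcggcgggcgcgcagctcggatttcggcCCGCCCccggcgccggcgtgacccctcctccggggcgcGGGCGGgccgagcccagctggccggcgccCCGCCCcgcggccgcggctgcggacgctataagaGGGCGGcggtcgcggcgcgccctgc
These 3 windows had 85.2%, 77.6% and 84.4% G and C and held 8, 6 and 5 copies of GGGCGG in the same order, overlapping copies counted. Over all 32851 promoter windows of this length the median was 52.4% G and C, and 32.7% held at least 1 copy. Wnt11 and Wnt5b, the genes within 2-fold, had windows with less G and C than these 3. The Wnt11 windows had 70.8% with 4 copies and 56.8% with 0. Those of Wnt5b had 55.6% with 2 copies, 53.2% with 0 and 75.2% with 1. A link between these sequences and the signals was not tested. Wnt3a had 87.6% G and C with 9 copies, and Wnt3 had 68.0% with 2.

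A match to CTTTGAA or CTTTGAT, letters that Tcf and Lef factors bind, on either strand, was present in 7.48% of all windows. Among the ligands it was in 1 window each of Wnt11 and Wnt5b. These genes have several windows each and the other ligands used have 1, so they had more chances of a match. A link between the match and the signals was not tested. The Wnt11 window is shown because it holds this match, starting 51 bases before the gene's start, in capitals and read here on the other strand. It lies at chr7:98834862-98835111 on the plus strand.
Wnt11: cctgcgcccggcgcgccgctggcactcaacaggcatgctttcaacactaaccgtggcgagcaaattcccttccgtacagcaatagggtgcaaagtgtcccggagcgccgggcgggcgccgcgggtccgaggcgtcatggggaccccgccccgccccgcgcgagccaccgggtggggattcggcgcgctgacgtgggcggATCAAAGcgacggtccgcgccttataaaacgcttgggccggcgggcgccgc
No such letters are in the windows of Wnt3, Wnt3a, Wnt4, Wnt7a and Wnt9a. Wnt5a, Wnt7b and Wnt10a are not among the sequences used here.

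Several ligand genes are neighbours among the protein-coding genes of this assembly. Wnt3a and Wnt9a lie next to each other on chromosome 11 and point away from each other, with 15678 bases between their windows. Wnt10a neighbours Wnt6 on chromosome 1. Wnt6 had a signal of 39.6 in CHIR+ and 35.5 in CHIR-, within 2-fold, where Wnt10a was at least 2.41-fold lower. Wnt3 neighbours Wnt9b, which had 15.8 in CHIR+ and 32.1 in CHIR-, 2.03-fold lower. These signals are close to the floors of 12.7 and 19.2, and the other Wnt9b probe set was below the floor on both arrays.

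Among the 9 other Wnt ligand genes, 3 were readable on at least 1 array. Of these 3, 0 were 2-fold higher and 1 was lower, against 1.9% and 18.4% of all measured genes. Since 1 of the 3 had no ratio, so few genes cannot show a difference from these shares. Wnt9b, with signals close to the floors, was the 1 past 2-fold and Wnt6 was within it. Wnt10b had 13.6 in CHIR+, just above the floor, and 3.81 in CHIR-, below it, which allows no ratio. Wnt1, Wnt2, Wnt2b, Wnt8a, Wnt8b and Wnt16 were below the floor on both arrays, and among them Wnt2 had 4.61 in CHIR+ and 2.11 in CHIR-.

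Genes for the modification, secretion and surface binding of Wnts were mostly within 2-fold, with Porcn and Sulf1 higher and Gpc4 lower. Porcn, the enzyme that attaches the lipid to every Wnt, had a signal of 234 in CHIR+ and 79.3 in CHIR-, 2.95-fold higher by its only probe set. Wls, the carrier that takes Wnts to the cell surface, had 2860 in CHIR+ and 4257 in CHIR- by its brightest probe set, within 2-fold. By a further pair of probe sets Wls was lower, 2.17-fold (653 in CHIR+ and 1418 in CHIR-) and 2.12-fold (1469 in CHIR+ and 3119 in CHIR-). Sulf1, which trims the heparan sulfate that holds Wnts at the surface, had 51.2 in CHIR+ and was below the floor in CHIR-, at least 2.67-fold higher. Gpc4, a heparan sulfate proteoglycan, was 3.31-fold lower (136 in CHIR+ and 451 in CHIR-), with its other probe set 3.54-fold lower. Of 14 measured genes in this list 2 were higher and 1 was lower, against 1.9% and 18.4% of all measured genes.

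Of 16 measured receptor and co-receptor genes 1 was higher and 4 were lower, against 1.9% and 18.4% of all measured genes. Ror1, a receptor of Wnt5a, had 375 in CHIR+ and 139 in CHIR-, 2.70-fold higher, with its other probe sets below the floor. Fzd5 was 3.10-fold lower (187 in CHIR+ and 580 in CHIR-), Fzd8 2.19-fold lower and Fzd4 2.03-fold lower, all Frizzled receptors. The remaining lower gene was Lrp6. Reck, a surface protein that makes cells responsive to Wnt7a and Wnt7b, had 89.1 in CHIR+ and 81.4 in CHIR-, and its partner Adgra2 was below the floor on both arrays. Lrp6, Reck and Adgra2 were chosen after their values were seen.

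Inhibitors and targets of Wnt signalling had more higher than lower genes, where 1.9% of all measured genes were higher and 18.4% lower. Of 11 measured inhibitors 4 were higher and 0 were lower, the 4 being Dkk1, Axin2, Nkd1 and Rnf43. Dkk1, a secreted antagonist of Lrp5 and Lrp6, had 541 in CHIR+ and 44.3 in CHIR-, 12.2-fold higher. Its dimmer probe set was 7.98-fold higher (157 in CHIR+ and 19.7 in CHIR-). Rnf43, an enzyme that removes Frizzled receptors from the surface, had 659 in CHIR+ and 259 in CHIR-, 2.55-fold higher. Of 14 measured targets 8 were higher and 1 was lower, with a median log2 ratio of 1.53. The lower one was Myc, with 41.5 in CHIR+ and 263 in CHIR-, 6.32-fold lower. The target list shares Axin2, Nkd1, Notum, Dkk1, Znrf3 and Rnf43 with the inhibitors, so all 4 higher inhibitors are also listed targets. The measured inhibitors outside the target list, Sfrp1, Sfrp4, Wif1, Apcdd1 and Kremen1, were all within 2-fold. Over the 5 lists together, 11 of 51 measured genes were higher and 7 lower. These became 15 and 3 after median centring (5.91% and 7.44% of all measured genes), when Wnt9b, Fzd4, Fzd8 and Lrp6 came within 2-fold.

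**Figure D4:**
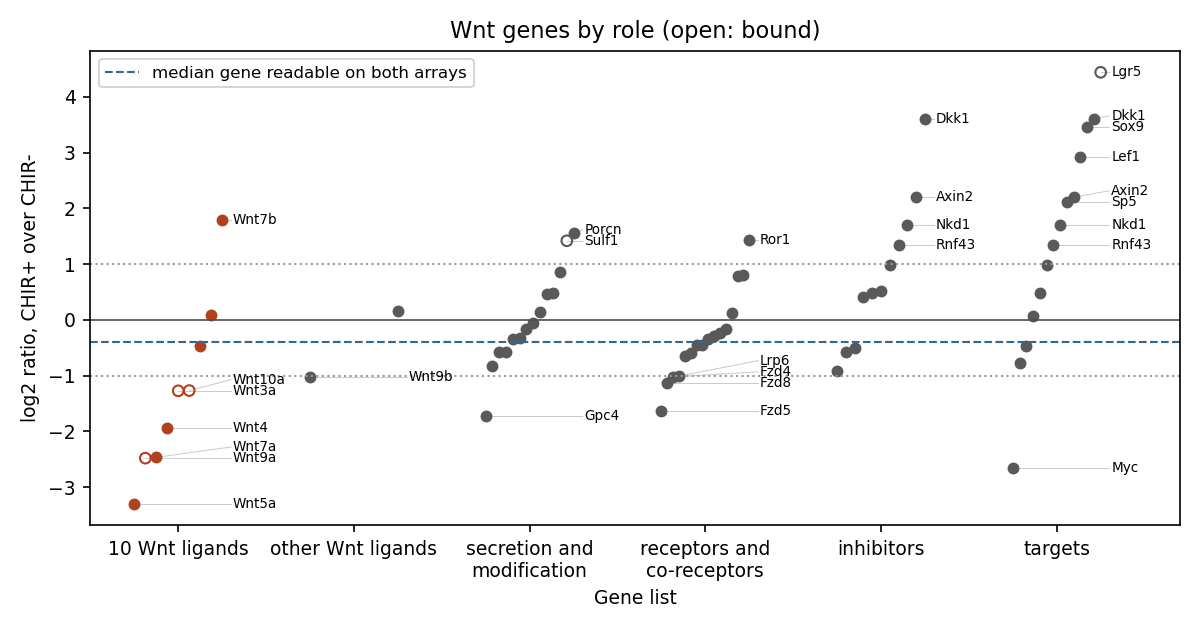
Log2 ratio, CHIR+ over CHIR-, of each measured gene by list (10 Wnt ligands in red, other Wnt genes in grey, open symbols for bounds), with dotted lines at 2-fold and a dashed line at the median gene, -0.40. Among the 10 ligands Wnt7b is the 1 gene above the upper line, while 8 target genes lie above it.

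The cultures were checked against cell type markers. All 10 epithelial markers were readable on at least 1 array, with a summed signal of 26899.7 in CHIR+ and 46200.5 in CHIR-. On the authors' scale 5 of these were lower and 5 within 2-fold, where 18.4% of all measured genes were lower. Krt19, a keratin, was among the lower (278 in CHIR+ and 4030 in CHIR-). Within 2-fold were Epcam, an adhesion molecule (3743 in CHIR+ and 3846 in CHIR-), Sftpc (8500 in CHIR+ and 8808 in CHIR-), Cdh1, Cldn6 and Foxa2. Nkx2-1, the transcription factor that defines lung epithelium, had 5.84 in CHIR+, below the floor, and 52.0 in CHIR-, by its only probe set. Of 15 mesenchyme markers 8 were readable on at least 1 array, with none past 2-fold and a summed signal of 679 in CHIR+ and 755 in CHIR-. Vim (245 in CHIR+ and 257 in CHIR-), Acta2 (194 in CHIR+ and 199 in CHIR-), Col1a1, Col1a2, Col3a1 and Dcn were readable on both arrays. Tbx5 (20.8) and Foxf1 (14.9), transcription factors of lung mesenchyme, were above the floor in CHIR+ only, and another Foxf1 probe set was above it in CHIR- only, at 25.7. Pdgfrb, Tbx4, Fgf10, Twist1, Twist2 and Meox2 were below the floor on both arrays by every probe set, and Pdgfra was so by all but 1, at 24.7 in CHIR-. The part of such cells in the ligand values was not tested. Of 6 mesothelium markers 4 were readable on at least 1 array, with a summed signal of 66.8 in CHIR+ and 533 in CHIR-. That difference comes from Msln, a surface protein also made by some epithelia, with 4.84 in CHIR+ and 471 in CHIR-, while Fgf9 had 26.6 in CHIR+ and 25.4 in CHIR-, Upk1b had 17.6 in CHIR+ and 25.3 in CHIR-, and Lrrn4 was above the floor in CHIR+ only, at 14.8. Wt1 and Upk3b were below the floor on both arrays. Of 6 endothelium markers 1 was above the floor, with a summed signal of 46.1 in CHIR+ and 65.5 in CHIR-, and of 5 blood markers 3 were, with 120.1 in CHIR+ and 163 in CHIR-. In RNA from whole cultures, fewer cells that make a ligand and less ligand RNA per cell cannot be told apart.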

How the data were processed

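Gene expression was measured in 2 samples, 1 array for each condition, from 100 ng of total RNA per the labels' protocols. The deposited values are signal intensities per probe set, made by the authors with MAS5 per the submitters' processing notes, which give no version or scaling target. The 2% trimmed means, 151 on the CHIR+ array and 204 on the CHIR- array, show that the arrays were not brought to 1 common value. No detection call was used, and the number of arrays limits the precision.

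Of 45101 probe sets, 64 were controls, 34958 named 1 gene (some controls included), 932 several and 9211 none. The 10 ligand symbols matched RefSeq by Entrez identifier, and 0 probe sets of several genes named a ligand. Each gene was read from the brightest of its single-gene probe sets, by mean log2 signal. Signals below the floor were raised to it, and 2-fold was the threshold. The ligands, gene lists and settings were chosen with earlier results of these data known. Named genes were all ligands, up to 4 genes past 2-fold per Wnt list, and the 3 genes nearest to Wnt7b and Wnt5a, beside cell type markers and a few genes (among them Wls, Lrp6, Reck and Adgra2) picked with their values known. The alternatives were 4 scalings, other floors, an offset of 16, other probe set choices and folds of 1.5 and 3. Python 3.11.15, numpy 2.4.6, pandas 2.3.3, statsmodels 0.14.6 and matplotlib 3.10.9 were used. The procedure was tested on simulated data with changes only in bright genes readable on both arrays, so ligands near the floor were not covered.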

Additional observations from a re-analysis of the deposited data

How the results depend on the processing

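The log2 ratios of the 9 ligand genes with a value were recomputed under the alternatives, which gave 96 values. Of these, 75 values moved by less than the SD of 0.557 between probe sets of 1 gene, and 21 moved by more. None of the called genes changed sign, but this was partly fixed in advance. With a floor, a bound of the opposite sign was not kept, which applies to Wnt3a, Wnt9a and Wnt10a. Scaling and probe set choice were not varied together, and the second Wnt7a probe set changed sign with the scaling, as given above. The range was 1.68 to 2.32 for Wnt7b, -3.30 to -1.64 for Wnt5a, -2.14 to -1.26 for Wnt4, -5.25 to -1.80 for Wnt9a and -2.47 to -0.20 for Wnt7a, whose upper end is its dimmer readable probe set. Wnt3a ran from -3.37 without a floor to -0.58 after quantile normalization, Wnt10a from -1.41 to -0.58, Wnt11 from -0.47 to 0.22 and Wnt5b from 0.05 to 0.79. In these ranges the -1.64 of Wnt5a and the -2.14 of Wnt4 are bounds. So are all values of Wnt9a, Wnt3a and Wnt10a except those made without a floor or with the offset. The -5.25 of Wnt9a was made without a floor, from a CHIR+ signal of 1.87, below the floor of 12.7. For Wnt5b 3 alternatives gave no ratio. The number of ligand genes higher was 1 under every alternative, and the number lower was 4 to 7, against 6. Median centring, quantile normalization, loess, a floor at the 99th percentile and a 3-fold threshold gave 4. The 7 came without a floor, where 4606 of all 18193 genes were lower. With the floor at the 99th percentile, 2089 of 11795 measured genes were lower. Numbers over all genes for other settings are given below.

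Of the Wnt pathway genes, 11 were higher and 7 lower. The number higher was 19 after quantile normalization, 17 after loess and 7 at 3-fold. Over all 12917 measured genes it was 245 on the authors' scale, 954 after quantile normalization, 780 after loess and 81 at 3-fold. The number lower was 3 after median centring, quantile normalization, loess and scaling on hybridization controls. It was 3 with the offset, 3 at 3-fold and 12 at 1.5-fold. Over all measured genes the number lower was 2380 on the authors' scale, 961 after median centring, 830 after quantile normalization and 942 after loess. It was 1811 after scaling on hybridization controls, 812 at 3-fold, 5002 at 1.5-fold and, of 18193 genes, 1796 with the offset. The cause was not tested. The median gene lay at 0.07 after median centring, 0.12 after quantile normalization, 0.05 after loess and -0.25 after scaling on hybridization controls. No paired analysis was possible because each condition has 1 array. Ligands near the floor (Wnt3, Wnt3a, Wnt5b and Wnt10a) are limited by signal over background.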

Other observations

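The genes whose pair of signals was nearest to that of Wnt7b, by Euclidean distance over the 2 log2 signals among the 10872 other genes readable on both arrays that have more than a clone or locus name, were Spin2c (700 in CHIR+ and 155 in CHIR-), Pcbp4 (564 in CHIR+ and 216 in CHIR-) and Nmral1 (527 in CHIR+ and 238 in CHIR-). Pcbp4 encodes an RNA-binding protein. The genes nearest to Wnt5a were Kcne2 (31.2 in CHIR+ and 268 in CHIR-), Gcnt2 (27.3 in CHIR+ and 275 in CHIR-) and Acss1 (32.3 in CHIR+ and 320 in CHIR-). Kcne2 encodes a subunit of potassium channels, Gcnt2 a glycosyltransferase and Acss1 a mitochondrial acetyl-CoA synthetase. The likeness rests on 2 arrays and on signals of different probe sets.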
